A study of Mus musculus with 15 samples.

Results

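The genes described here are 10 genes that carry arginine into a macrophage and turn it into nitric oxide, ornithine and polyamines, namely *Arg1*, *Arg2*, *Nos2*, *Ass1*, *Asl*, *Slc7a2*, *Odc1*, *Srm*, *Sms* and *Sat1*. They were chosen by symbol, with earlier results of these data known, and each matched 1 of the 78317 Ensembl gene identifiers of the count table. The table holds RNA-seq counts of MH-S cells, a murine alveolar macrophage line transformed with SV40, kept for 24 h in 5 conditions with 3 wells each. M0 wells received medium alone. M1 wells received LPS at 1 µg/mL with IFN-γ at 20 ng/mL, and M2 wells received IL-4 at 20 ng/mL. The CaP and SiO2 wells received microrods of calcium phosphate or silica nanoparticles at 0.1 mg/mL, both stabilized with alginate and coated with layers of protamine and carboxymethyl chitosan. Every well held cells of the same passage and each microrod well its own particle batch, so the spread between 3 wells covers wells and particle batches but not passages, and all results refer to a single transformed line.

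Arginine is the common substrate of enzymes that compete for it in macrophages. The inducible nitric oxide synthase, encoded by *Nos2*, makes nitric oxide and citrulline, and is the textbook product of LPS and interferon signalling in murine macrophages. Arginase 1 is the textbook product of IL-4 signalling and splits arginine into urea and ornithine, which ornithine decarboxylase converts to putrescine, the first polyamine. Spermidine and spermine are built from putrescine, take part in translation and growth, and are acetylated for export or oxidation. The comparisons ask which of these genes differ under the polarizing stimuli, and whether cells given either microrod moved in the direction of M1 or M2.

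A RefSeq table of the mouse assembly GRCm38.p6, another build than the GRCm39 the counts were made on, held a promoter for 4 of the 10 genes, *Ass1*, *Odc1*, *Sat1* and *Sms*. The 250 bases before the start site are shown 5′ to 3′ on the gene's strand for the citrulline-consuming enzyme and for the genes that begin and end the polyamine route, since these are the members whose libraries are described one by one further on. Capitals mark a CACGTG E-box, the core to which MYC-type factors bind. The *Ass1* sequence is chr2:31470020-31470269 on the plus strand, the *Odc1* sequence is chr12:17544623-17544872 on the plus strand, and the *Sat1* sequence is chrX:155216450-155216699 on the minus strand.
Ass1: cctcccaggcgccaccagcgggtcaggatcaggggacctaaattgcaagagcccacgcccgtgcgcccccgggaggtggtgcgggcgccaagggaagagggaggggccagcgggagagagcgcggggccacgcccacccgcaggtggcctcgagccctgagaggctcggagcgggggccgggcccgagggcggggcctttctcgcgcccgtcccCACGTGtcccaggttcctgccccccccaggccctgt
Odc1: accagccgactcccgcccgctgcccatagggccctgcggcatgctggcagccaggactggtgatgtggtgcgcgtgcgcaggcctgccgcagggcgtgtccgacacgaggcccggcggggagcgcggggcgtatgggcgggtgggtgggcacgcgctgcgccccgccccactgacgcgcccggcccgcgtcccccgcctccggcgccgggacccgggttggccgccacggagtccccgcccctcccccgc
Sat1: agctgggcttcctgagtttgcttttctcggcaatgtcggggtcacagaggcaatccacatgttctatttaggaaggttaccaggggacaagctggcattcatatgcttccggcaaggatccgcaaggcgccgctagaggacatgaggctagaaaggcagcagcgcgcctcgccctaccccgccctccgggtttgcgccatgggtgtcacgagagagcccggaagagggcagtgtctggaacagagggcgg
Both strands were searched for motifs with overlaps allowed, of which 4 are given here, each with the share of all 32851 promoters of this length that hold it. These were the STAT6-type element TTCNNNNGAA, in 5.85%, the NF-κB site GGGANTTNCC, in 0.980%, the interferon response core GAAANNGAAA, in 2.98%, and the E-box, in 6.02%. The *Ass1* window held 1 E-box, which begins at position -36 from the start site, and 1 of the 2 *Sms* windows held an E-box at position -196. None of the 4 motifs stood in the *Odc1* or *Sat1* window. *Arg1*, *Arg2*, *Nos2*, *Asl*, *Slc7a2* and *Srm* had no entry.

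The total count per library lay between 8459643 and 68750050, so that 3 counts were worth from 0.0429 to 0.394 CPM, a gene's share of the library total after TMM scaling. On the second principal component, which held 24.1% of the variance, M0 replicate 3 at -42.7, M2 replicate 2 at -43.9 and SiO2 replicate 2 at -21.7 stood apart from the other 12 libraries, which lay at -4.36 or above. They had the lowest total counts of their groups, at 8459643, 8594947 and 12646926. In M1 and CaP too, the library with the lowest total was lowest on this component, at 4.29 and -2.41. A part of depth in this component was not tested. Values without these 3 libraries are given where they change the call of a member against M0, between M1 and M2 or between the microrods. For the wider list described below, only the changed count is given. Of 10 macrophage markers, 8 had a median of at least 1 CPM, with *Siglecf* at 0.0489 and *Marco* at 0.0681 CPM, both typical of alveolar macrophages in the lung, near 0. The summed macrophage markers lay between 2739 and 3700 CPM in M0 and between 1681 and 2302 CPM in M2. Summed markers of epithelium, fibroblasts, T cells and B cells stayed at or under 0.429 CPM, and *Epcam* was at 0 in every library. Summed neutrophil markers reached 0.776 to 1.50 CPM in M1 against at most 0.553 CPM elsewhere, and summed endothelial markers 1.26 to 1.55 CPM in M1 against 0.116 to 0.844 CPM in M0 and 0.920 to 1.77 CPM in M2, and their part in the results was not tested.

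Of the 10 genes, 9 passed the filter on low counts, which kept 16654 genes. *Arg2* did not pass and was not tested. *Nos2* passed only through the M1 libraries, where it was high, so it had to differ between M1 and the rest once it was tested. To be called, a gene needed an adjusted p under 0.05 and a log2 fold change beyond 0.5 in either direction. The test was edgeR's quasi-likelihood test, with p-values adjusted by Benjamini-Hochberg over all genes tested. All p-values in the text are from this test unless DESeq2 is named, and an exact two-sided permutation test of 1 gene in 3 against 3 libraries could not go below 0.1.

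In cells under LPS and IFN-γ, the member for arginine uptake and the genes for arginase 1 and inducible nitric oxide synthase all rose. *Slc7a2*, *Arg1* and *Nos2* were the 3 of 9 tested members called in M1 against M0, beside 14% of all genes tested, and none fell. *Nos2* is in that count only because its M1 libraries brought it through the filter, so the count is no support for the members as a group. In cells under IL-4, *Arg1* rose 143-fold and *Slc7a2* 8.34-fold, 2 of 9 tested members, against 4.13% of all genes. No gene of arginine resynthesis or polyamine metabolism among the members was called in either comparison. Both comparisons use the same 3 M0 libraries. Because the members were chosen with earlier results known, no count or median of theirs, here or below, is support for them as a group. The median log2 fold change of the 9 tested members was 0.33 in M1 and 0.45 in M2 against M0, where that of all genes tested was -0.01 and 0.07.

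*Slc7a2* encodes CAT2, a cationic amino acid transporter that brings arginine into activated macrophages. Its level was 5.73, 5.39 and 6.01 CPM in M0, 22.9, 22.9 and 25.8 CPM in M1, and 56.8, 47.0 and 39.1 CPM in M2. The 3 groups did not overlap, with the 3 M2 libraries highest and the 3 M0 libraries lowest. The log2 fold change was 2.06 (SE 0.26, adjusted p = 9.70e-05) in M1 and 3.06 (SE 0.26, adjusted p = 9.04e-06) in M2 against M0. The level in M1 was also 1.99-fold lower than in M2 (SE 0.24 on the log2 scale, adjusted p = 0.0102). Each of these calls held with any of the 15 libraries left out.

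*Arg1* encodes arginase 1. M0 libraries had 9.78, 8.44 and 14.7 CPM, M1 libraries 23.4, 20.5 and 20.8 CPM, and M2 libraries 1721, 1542 and 1380 CPM. All 3 M1 libraries lay above all 3 M0 libraries, and the M2 libraries lay far above both. The increase in M2 was a log2 fold change of 7.16 (SE 0.29, adjusted p = 6.93e-09), and that in M1 one of 1.00 (SE 0.23, 95% interval 0.50 to 1.50, adjusted p = 0.0113). With 1 library left out, the log2 fold change in M1 stayed between 0.85 and 1.23, and the call was lost without M0 replicate 1 (adjusted p = 0.0588) and without M0 replicate 2 (adjusted p = 0.0524). In a bulk measurement, a few cells with much arginase RNA and many cells with little cannot be told apart.

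*Nos2* was counted 48, 88 and 87 times in the M1 libraries, which is 4.12, 6.01 and 8.44 CPM. It was not counted in any M0 library, and the M2 libraries held 5, 0 and 1 counts, or 0.34, 0 and 0.01 CPM. M1 stood above every other library without overlap. Against the highest level that 3 counts could have had in an M0 library, 0.347 CPM, the mean of 6.19 ± 2.17 CPM (SD, n = 3) in M1 was at least 17.8-fold higher (adjusted p = 1.69e-05). Against M2 the fitted log2 fold change was 6.37 (SE 0.75, adjusted p = 1.83e-05). Since the M1 libraries also put *Nos2* among the genes tested, these p-values describe a difference that the filter favoured.

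*Arg2*, the mitochondrial arginase, was counted 6, 12 and 3 times in M1, or 0.52, 0.82 and 0.29 CPM, against 1, 0 and 0 counts in M0 and 0, 1 and 1 in M2. The M1 libraries did not overlap with either group. The M1 mean was at least 1.56-fold higher than 3 counts in an M0 library would be, and at least 1.37-fold higher than 3 counts in an M2 library. In a fit without a filter on low counts, edgeR gave an adjusted p of 3.19e-04 for M1 against M0 and of 1.43e-04 for M1 against M2. The p-values of that fit are not on the scale of the filtered fit. For *Arg1* in M2 against M0 its adjusted p was 9.69e-132, against 6.93e-09 with the filter. The log2 fold changes there were 7.17 and 7.16. The *Arg2* levels are near the limit of counting, as the plot of *Nos2* and *Arg2* shows.

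**Figure D1:**
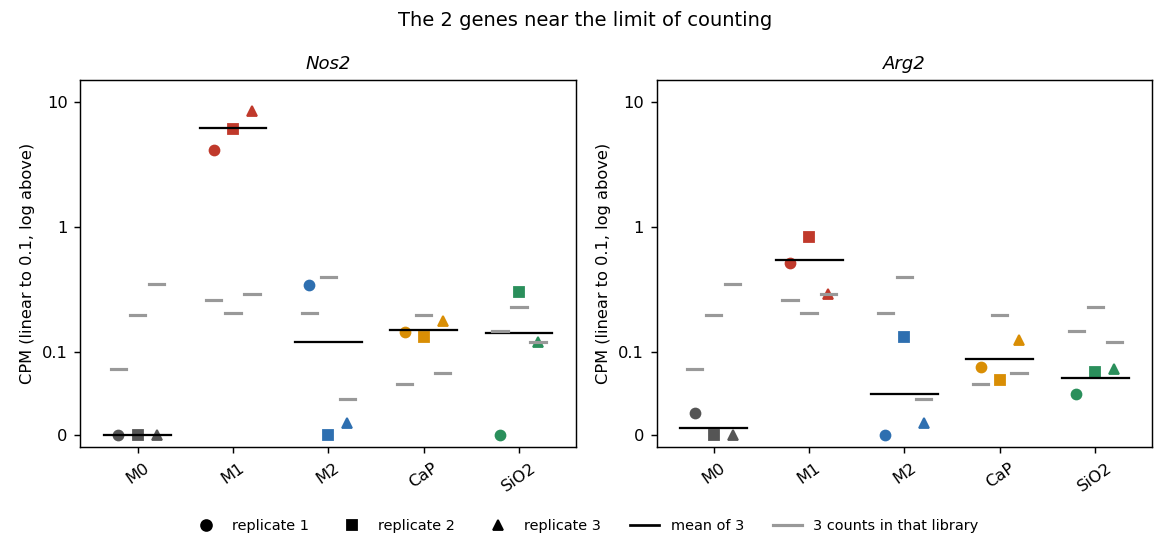
CPM of *Nos2* (left) and *Arg2* (right) in each library by group, on an axis that is linear up to 0.1 CPM and logarithmic above, with black lines at the mean of 3 libraries and grey ticks at the level 3 counts have in that library. *Nos2* lies at 4.12 to 8.44 CPM in M1 and at or under 0.34 CPM in the other 12 libraries, and *Arg2* reaches at most 0.13 CPM outside M1.

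Per kilobase of exon, a rough scale for comparing different genes, *Arg1* stood above *Nos2* in M1 as well. The length joins all annotated exons of a gene, whether or not these cells use them, so close ranks are uncertain. The mean was 9.69 CPM per kilobase for *Arg1* and 1.40 CPM per kilobase for *Nos2*, and the ratio in the 3 M1 libraries was 11.3, 6.77 and 4.87. In M2, *Arg1* reached 695 CPM per kilobase, above *Srm* at 112 and *Sat1* at 100.4, the next members in order. In M0 the order was led by *Sat1* at 128 and *Srm* at 82.2 CPM per kilobase, with *Odc1* at 26.1, *Ass1* at 17.3, *Asl* at 17.1, *Sms* at 16.4, *Arg1* at 4.92 and *Slc7a2* at 0.625. In resting cells, each of the 4 genes of the polyamine route was thus above *Arg1*, *Arg2* and *Nos2* on this scale.

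Compared directly, M1 and M2 differed in 3 of 9 tested members, beside 16.1% of all genes tested. *Nos2*, tested only through its M1 libraries, is among them, so the count is no support for the members as a group. *Nos2* was higher in M1, and *Arg1*, with a log2 fold change of -6.16 (SE 0.27, adjusted p = 2.91e-09), and *Slc7a2* were lower. The median log2 fold change was 0.08 over the tested members and -0.04 over all genes tested. 

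Argininosuccinate synthase (*Ass1*) and argininosuccinate lyase (*Asl*) rebuild arginine from the citrulline that nitric oxide synthase releases. *Ass1* was at 26.9, 55.4 and 43.1 CPM in M0, at 36.7, 59.0 and 58.8 CPM in M1 and at 91.3, 55.7 and 72.9 CPM in M2. M1 and M0 overlapped, and the lowest M2 library lay barely above the highest M0 library. M2 against M0 gave a log2 fold change of 0.82 (95% interval 0.24 to 1.40), with an unadjusted p of 0.00933, an adjusted p of 0.120 and an adjusted p of 0.0594 with DESeq2. In M1 against M0 it was 0.31 (95% interval -0.27 to 0.89, adjusted p = 0.485). *Asl* ranged over 71.2 to 113 CPM in all 9 libraries of these 3 groups, with log2 fold changes of 0.26 in M1 (95% interval -0.09 to 0.60) and 0.17 in M2 (95% interval -0.17 to 0.52) against M0.

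*Odc1* encodes ornithine decarboxylase, the first and rate-limiting enzyme of polyamine synthesis. M0 libraries had 103.9, 75.7 and 87.3 CPM, M1 libraries 140.4, 103.1 and 91.7 CPM, and M2 libraries 46.1, 132 and 62.7 CPM. Within M2, replicate 2 was far above the other replicates and lay within the range of M1. The log2 fold change in M1 against M2 was 0.49 (95% interval -0.17 to 1.14, adjusted p = 0.292) with all libraries. Without M2 replicate 2, one of the libraries that stood apart, it was 0.91 (adjusted p = 0.0112), and without the 3 libraries that stood apart it was 1.03 (adjusted p = 0.00784).

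*Sat1* encodes spermidine/spermine acetyltransferase, which marks polyamines for export and oxidation, and its libraries split in the same manner. It was at 377, 274 and 417 CPM in M0, at 522, 381 and 447 CPM in M1, and at 237, 402 and 197 CPM in M2. M2 replicate 2 alone lay within the range of M0 and M1. M1 against M2 gave a log2 fold change of 0.70 (95% interval 0.19 to 1.20, adjusted p = 0.0616). It was 0.95 (adjusted p = 0.00330) without M2 replicate 2 and 1.05 (adjusted p = 0.00231) without the 3 libraries that stood apart. Against M0, M2 had a log2 fold change of -0.36 (adjusted p = 0.491), and of -0.72 (adjusted p = 0.0378) without M2 replicate 2. The median of all genes tested in M1 against M2 moved by -0.12 on the log2 scale when that library was left out.

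*Srm* and *Sms* encode spermidine synthase and spermine synthase. *Srm* was at 132 ± 25.3 CPM in M0, 160.2 ± 19.9 CPM in M1 and 179.6 ± 43.3 CPM in M2 (SD, n = 3 each), and the groups overlapped. Its log2 fold change in M2 against M0 was 0.45 (95% interval 0.01 to 0.89), with an unadjusted p of 0.0447 and an adjusted p of 0.276. *Sms* was at 98.3 ± 14.5 CPM in M0, 109 ± 2.46 CPM in M1 and 83.7 ± 6.98 CPM in M2. Its 3 M1 libraries lay above its 3 M2 libraries, with a log2 fold change of 0.37 (95% interval 0.08 to 0.67, adjusted p = 0.0809), and the size of that difference was under the threshold of 0.5. Reads of *Sms* may be split with its near-identical copy *Sms-ps*, which had group means of 34.0 to 44.6 CPM, so the *Sms* level is uncertain.

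**Figure D2:**
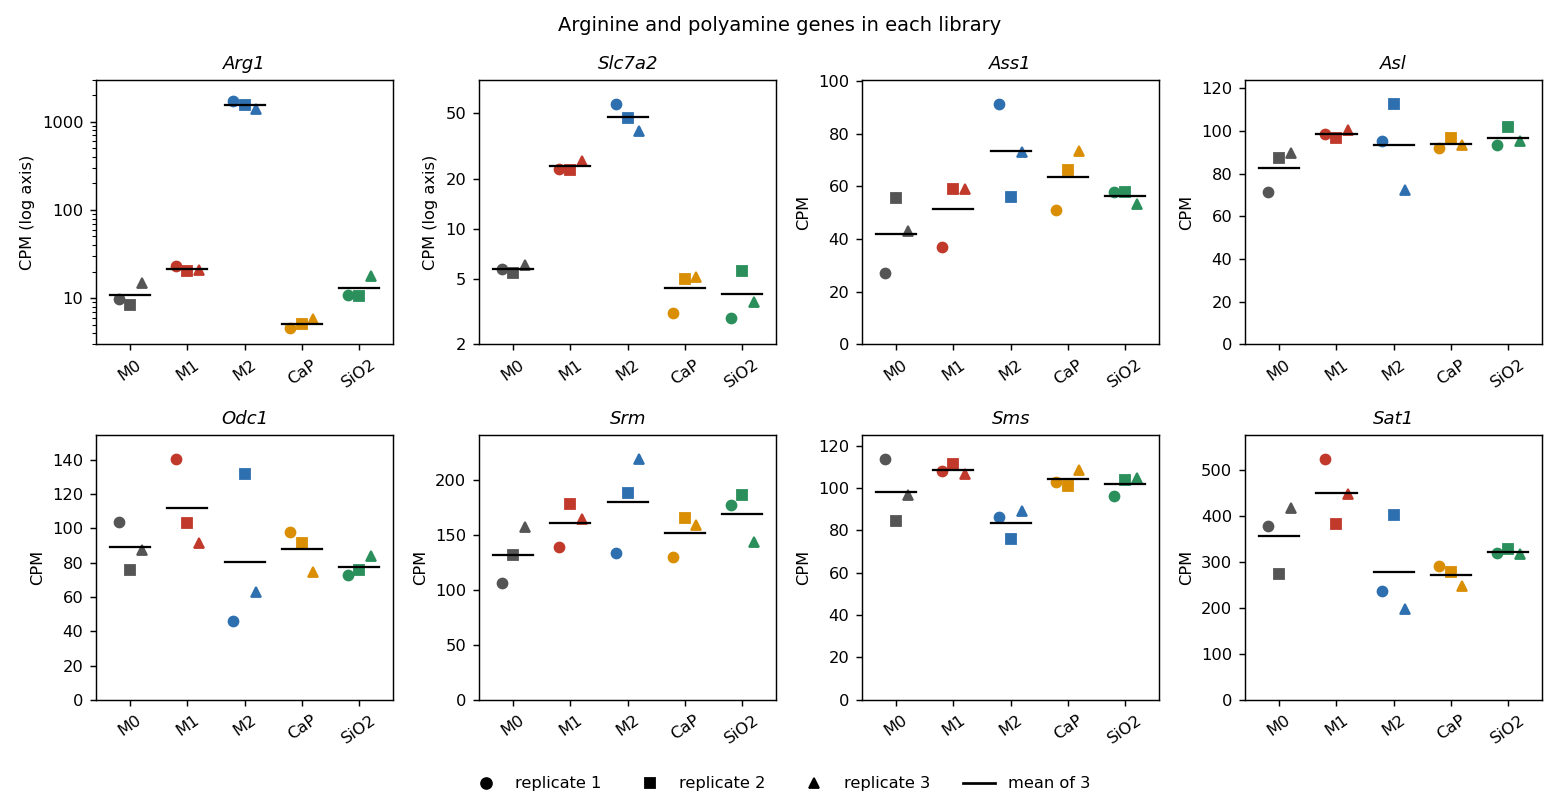
CPM of 8 members in each library of the 5 groups, on logarithmic axes for *Arg1* and *Slc7a2* and on linear axes from 0 for the others, with black lines at the mean of 3 libraries. *Arg1* at 1380 to 1721 CPM and *Slc7a2* at 39.1 to 56.8 CPM stand apart in M2, whereas *Odc1* and *Sat1* show 1 M2 library above the other M2 libraries.

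Neither microrod moved a member past the threshold against M0 in edgeR's fit of all 15 libraries with the filter. In CaP against M0 none of the 9 tested members was called with edgeR, against 0.648% of all genes, although *Arg1*, *Nos2* and *Ass1* had an unadjusted p under 0.05. DESeq2 called 1 of the 9, *Arg1*, against 2.99% of all genes it tested. In SiO2 against M0 none was called with edgeR, against 0.264% of all genes, or with DESeq2, against 0.843%, and 0 had an unadjusted edgeR p under 0.05. The median log2 fold change over the tested members was 0.08 in CaP and 0.23 in SiO2, and 0.06 and -0.02 over all genes. The microrod groups were compared with the same M0 libraries as M1 and M2 were.

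For arginase 1 the CaP libraries stood apart in level from M0 and SiO2, and whether the difference was called depended on the test and the filter. *Arg1* was at 4.63, 5.05 and 5.75 CPM with CaP, at 10.8, 10.6 and 17.8 CPM with SiO2, and, as given above, at 8.44 to 14.7 CPM in M0. All 3 CaP libraries lay below every library of M0 and SiO2, while SiO2 and M0 overlapped. CaP against M0 had a log2 fold change of -1.07 (SE 0.24, 95% interval -1.58 to -0.55), with an unadjusted p of 5.70e-04 and an adjusted p of 0.0641. DESeq2 gave a log2 fold change of -1.09 and an adjusted p of 0.00288, and edgeR on thinned counts -1.24 and 0.0363. The edgeR fit with no filter on low counts, whose p-values are on another scale, gave -1.05 and 0.00117. With edgeR the adjusted p fell below 0.05 in 3 of the 15 fits with 1 library left out, and it reached 0.198 without CaP replicate 3. Without the 3 libraries that stood apart it was 0.142, with a log2 fold change of -0.84.

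The *Arg1* levels also did not overlap between the microrods, and the call again depended on the test, the filter and the libraries used. CaP against SiO2 had a log2 fold change of -1.35 for *Arg1* (SE 0.24, 95% interval -1.86 to -0.84), with an unadjusted p of 5.74e-05 and an adjusted p of 0.124, and none of 9 tested members was called, against 0.018% of all genes. DESeq2 called *Arg1*, with an adjusted p of 2.41e-04, as 1 of 9 against 0.0962% of all genes it tested. On thinned counts edgeR gave an adjusted p of 0.0384. With no filter on low counts it gave 1.13e-05, from the fit whose p-values are on another scale. Only this member had an unadjusted edgeR p under 0.05. The largest SiO2 value was that of replicate 3, and without it the adjusted p for *Arg1* in CaP against SiO2 was 0.762. In edgeR's fit of the 9 M0 and microrod libraries alone it was 0.773, and with a replicate block 0.176. SiO2 against M0 had a log2 fold change of 0.28 for *Arg1* (95% interval -0.22 to 0.79, adjusted p = 0.827). The median over the tested members in CaP against SiO2 was 0.03, as over all genes.

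*Nos2* was close to the limit of counting with both microrods. The CaP libraries held 7, 2 and 7 counts, or 0.14, 0.13 and 0.17 CPM, and the SiO2 libraries 0, 4 and 3 counts, or 0, 0.30 and 0.12 CPM. M0 libraries held none, but 3 counts there would be 0.0789, 0.195 and 0.347 CPM, so all 3 CaP values lay above that level in 1 M0 library and under it in the other 2. The 3 CaP libraries did not overlap with M0, and the difference was not called (unadjusted p = 0.0454, adjusted p = 0.307). Against M1, *Nos2* was lower with CaP by a log2 fold change of -5.28 (adjusted p = 1.97e-05) and with SiO2 by -5.62 (adjusted p = 5.25e-05). The filter favoured these differences from M1 too. *Arg2* was counted 4, 1 and 5 times with CaP and 1, 1 and 2 times with SiO2.

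*Slc7a2* was at 3.11, 4.99 and 5.13 CPM with CaP and at 2.88, 5.59 and 3.60 CPM with SiO2. The CaP libraries lay below the lowest M0 library, at 5.39 CPM, with replicate 1 the farthest below it, and the SiO2 libraries overlapped with M0. Against M0 the log2 fold change was -0.39 with CaP (95% interval -0.94 to 0.17, adjusted p = 0.482) and -0.53 with SiO2 (95% interval -1.10 to 0.04, adjusted p = 0.667), and between the microrods it was 0.14 (95% interval -0.42 to 0.71).

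*Ass1* was at 51.0, 66.3 and 73.3 CPM with CaP and at 57.7, 57.7 and 53.1 CPM with SiO2, and 2 of the 3 M0 libraries lay below all of these. Its log2 fold change against M0 was 0.61 with CaP (95% interval 0.03 to 1.19, unadjusted p = 0.0409, adjusted p = 0.295) and 0.43 with SiO2 (95% interval -0.15 to 1.01, adjusted p = 0.746). *Asl* was at 92.1 to 96.6 CPM with CaP and 93.5 to 102.0 CPM with SiO2, above the 3 M0 libraries, which reached 89.9 CPM. The log2 fold changes were 0.19 and 0.23, with 95% intervals of -0.16 to 0.53 and -0.11 to 0.57, and neither passed the test.

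The members of the polyamine route overlapped with M0 with both microrods, whereas *Amd1*, a gene of the wider list described below, did not. *Odc1* was at 97.8, 91.6 and 74.8 CPM with CaP and at 73.0, 75.7 and 84.0 CPM with SiO2, with log2 fold changes of -0.02 (95% interval -0.67 to 0.64) and -0.20 (95% interval -0.85 to 0.46) against M0. *Srm* was at 130, 165 and 158 CPM with CaP and at 177, 186 and 143 CPM with SiO2. Its M0 libraries lay at 106 to 157 CPM. *Srm* had log2 fold changes of 0.20 (95% interval -0.24 to 0.64) and 0.36 (95% interval -0.08 to 0.80), and *Sms* of 0.08 (95% interval -0.21 to 0.37) and 0.05 (95% interval -0.24 to 0.34). *Sat1* was at 290, 277 and 248 CPM with CaP and at 318, 328 and 316 CPM with SiO2. All 3 CaP libraries of *Sat1* lay below the 3 SiO2 libraries, and both groups overlapped with M0. For *Sat1* the log2 fold change was -0.39 with CaP (95% interval -0.90 to 0.12) and -0.15 with SiO2 (95% interval -0.65 to 0.36) against M0, and -0.24 between the microrods (95% interval -0.75 to 0.26, adjusted p = 1.00).

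**Figure D3:**
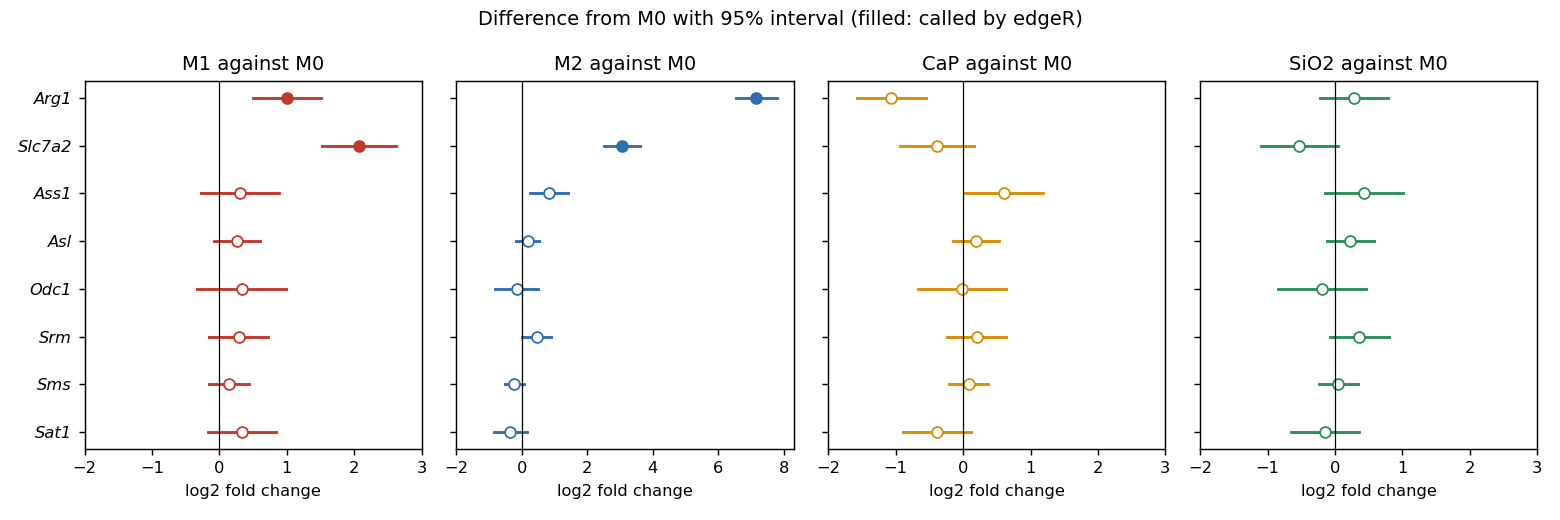
Log2 fold change against M0 of 8 tested members in M1, M2, CaP and SiO2, with points at the fitted value, lines over its 95% interval and filled points for genes called with edgeR (the axis of M2 is wider). The filled points are *Arg1* and *Slc7a2*, at 1.00 and 2.06 in M1 and at 7.16 and 3.06 in M2, and in CaP the interval of *Arg1*, -1.58 to -0.55, lies below 0 without a call.

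Against the polarized groups, *Slc7a2* was lower with both microrods in each comparison. In CaP against M1, 3 of 9 tested members were called, against 12.6% of all genes, and all were lower with CaP, namely *Arg1* (log2 fold change -2.07, adjusted p = 5.14e-05), *Nos2* and *Slc7a2* (-2.45, adjusted p = 1.79e-05). In SiO2 against M1, 2 of 9 were called, against 10.4%, and both were lower, *Nos2* and *Slc7a2* (-2.60, adjusted p = 1.50e-05). *Nos2* is in both counts against M1 only because its M1 libraries brought it through the filter. These counts are therefore no support for the members as a group. *Arg1* was at 10.6 to 17.8 CPM with SiO2 and at 20.5 to 23.4 CPM in M1 without overlap, with a log2 fold change of -0.72 (adjusted p = 0.0655). DESeq2 called this difference, with a log2 fold change of -0.71 and an adjusted p of 0.0396. In CaP against M2 the 2 genes called were *Arg1* (-8.23) and *Slc7a2* (-3.45), against 4.43% of all genes, and in SiO2 against M2 they were *Arg1* (-6.88) and *Slc7a2* (-3.59), against 3.65%. For *Sat1*, all 3 CaP libraries lay below all 3 M1 libraries, with a log2 fold change of -0.73 and an adjusted p of 0.0589.

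Ordered by mean level, *Arg1* went from M2 over M1, SiO2 and M0 to CaP, and of these neighbours only M2 and M1 differed by edgeR's test. DESeq2 also called M1 above SiO2 and M0 above CaP. *Nos2* went from M1 over CaP, SiO2 and M2 to M0, and only M1 and CaP differed, a difference that the filter favoured. *Slc7a2* went from M2 over M1, M0 and CaP to SiO2, and M2 from M1 and M1 from M0 were the neighbours that differed. For *Ass1*, *Asl*, *Odc1*, *Srm*, *Sms* and *Sat1* no neighbours in the order differed, and in each of these pairs the libraries overlapped. 

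A list of 38 other genes of arginine, nitric oxide and polyamine metabolism was read in the same fits, of which 32 were tested. In M1 against M0, 2 of the 32 rose and none fell, where 14% of all genes were called. *Gch1*, which makes the first step towards the tetrahydrobiopterin cofactor of nitric oxide synthase, was at 1.92, 1.88 and 1.97 CPM in M0 and at 5.67, 6.07 and 4.75 CPM in M1, a log2 fold change of 1.52 (adjusted p = 0.0258). *Slc3a2*, the heavy chain of several amino acid transporters, rose from 289 ± 62.3 to 484 ± 50.6 CPM, a log2 fold change of 0.74 (adjusted p = 0.00887). The call of *Gch1* held in 9 of the 15 fits with 1 library left out and that of *Slc3a2* in all 15. The median of the 32 was 0.23, against -0.01 over all genes.

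In M2 against M0, 2 of the 32 rose and 2 fell, where 4.13% of all genes were called. *Azin2*, a relative of ornithine decarboxylase that binds antizyme and has no decarboxylase activity of its own, was at 0.68, 0.71 and 0.46 CPM in M0 and at 17.6, 17.3 and 15.5 CPM in M2, a log2 fold change of 4.67 (SE 0.33, adjusted p = 1.89e-06) that held in all 15 fits. It was at 1.07 to 1.43 CPM in M1, at 0.47 to 1.12 CPM with CaP and at 0.34 to 0.91 CPM with SiO2, so M2 stood apart from every other group. *Gatm*, which uses arginine to make the precursor of creatine, rose from 93.7 ± 1.53 to 169.6 ± 23.8 CPM (log2 fold change 0.86, adjusted p = 0.0163), in 12 of the 15 fits.

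*Amd1*, the decarboxylase that supplies aminopropyl groups for spermidine and spermine, fell in M2 with a log2 fold change of -0.74 (adjusted p = 0.0372). Its 3 M0 libraries had 364, 262 and 282 CPM, and the other 12 libraries lay between 134 and 239 CPM, so that no library of any other group reached M0. The log2 fold change was -0.58 in M1 (adjusted p = 0.0504), -0.80 with CaP (adjusted p = 0.0679) and -0.75 with SiO2 (adjusted p = 0.198), none of them called, and DESeq2 gave adjusted p-values of 0.0264, 0.00729 and 0.0366 for these. All 4 comparisons share the M0 libraries, and the M2 call held in 7 of the 15 fits with 1 library left out. Reads of *Amd1* may be split with its copy *Amd2*, and the sum of both was 475 ± 93.9 CPM in M0 and 289 ± 24.1 CPM in M2. *Mtap*, which recycles the methylthioadenosine left by spermidine and spermine synthesis, fell from 136 ± 8.77 to 94.0 ± 6.59 CPM in M2 (log2 fold change -0.54, adjusted p = 0.0388), in 5 of the 15 fits. The median of the 32 was 0.18, against 0.07 over all genes.

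In M1 against M2, 6 of the 32 were called, a share near the 16.1% of all genes. *Gch1* (log2 fold change 1.73), *Slc3a2* (0.57), the transporter partner *Slc7a7* (1.99) and *Dhps* (0.70), which starts the spermidine-dependent hypusination of eIF5A, were higher in M1, and *Azin2* (-3.77) and *Gatm* (-0.96) were lower. *Slc7a7* was low, at 0.60 to 1.77 CPM in M1 and 0.26 to 0.34 CPM in M2. It would not have passed the filter without its M1 libraries, so the filter favoured this difference. *Gch1* was at 0.34, 3.81 and 1.61 CPM in M2, highest in replicate 2, one of the libraries that stood apart. With 1 library left out, 2 to 7 of the list were called. The median of the 32 was 0.13, against -0.04 over all genes.

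With the microrods none of the 32 was called by edgeR in CaP against M0, SiO2 against M0 or CaP against SiO2, where 0.648%, 0.264% and 0.018% of all genes were called and 7, 2 and 0 of the list had an unadjusted p under 0.05. Those unadjusted counts have no share over all genes beside them and are no result about the list. DESeq2 called 1 gene in each of the first and the second, *Amd1*, and 0 in the last. Of all genes it tested, it called 2.99%, 0.843% and 0.0962%. The medians were 0.30, 0.14 and 0.10, against 0.06, -0.02 and 0.03 over all genes. *Gch1*, higher in M1, lay above every M0 library with CaP, at 3.15 to 3.95 CPM, and with SiO2, at 2.85 to 3.42 CPM. *Mtap*, lower in M2, lay above every M0 library with CaP, at 155 to 187 CPM, and overlapped with M0 with SiO2. *Slc3a2* and *Gatm* overlapped with M0 with both microrods.

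**Figure D4:**
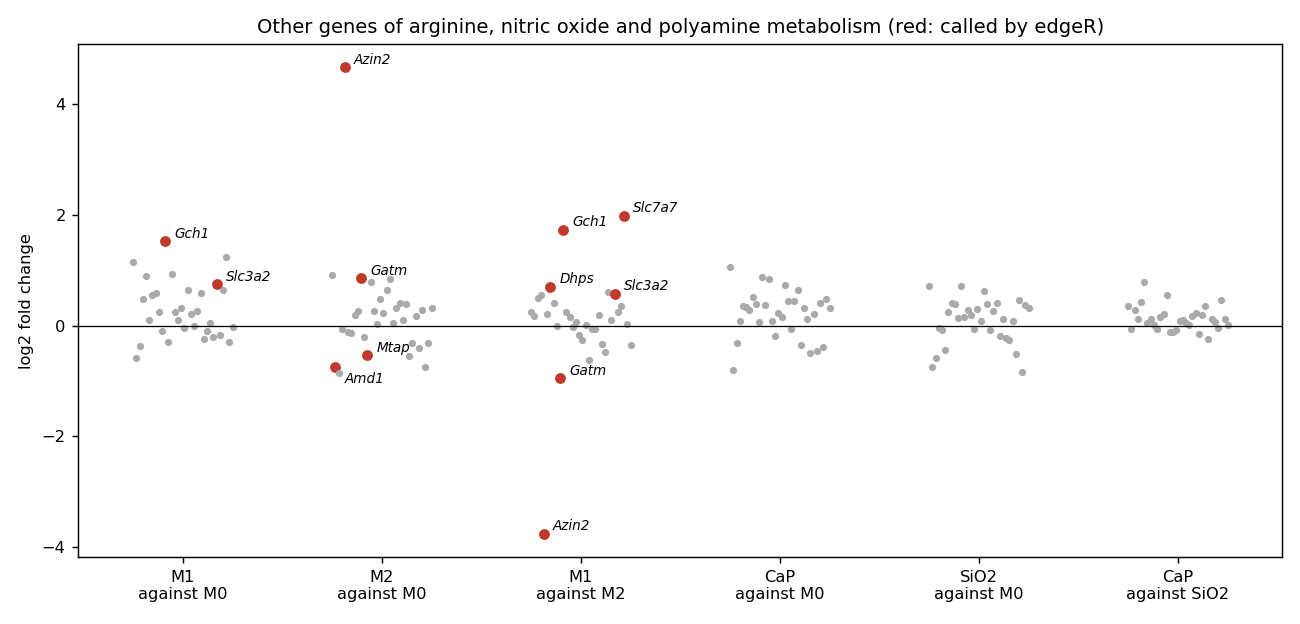
Log2 fold change of the 32 tested genes of the wider list in 6 comparisons, 1 point per gene with a small horizontal offset, in red and named where edgeR called the gene. *Azin2* stands at 4.67 in M2 against M0 and at -3.77 in M1 against M2, and the 3 columns of the microrods hold no red point.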

How the data were processed

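The authors made Smart-seq2 libraries from MH-S wells, aligned and quantified them with STAR and Salmon in the nf-core/rnaseq pipeline on the Ensembl annotation, with GRCm39 named in the submitters' processing notes, and tested groups with DESeq2. They deposited 1 table of counts, whole numbers per gene without normalization, which may be rounded Salmon estimates, so that reads of near-identical genes were split by that step. The names of all 15 columns matched a sample, with 0 left over. Libraries carry no molecular identifiers, so floors of 3 counts cover counting error only.

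Symbols for 51487 of 78317 identifiers and exon lengths came from a mouse annotation of the build GRCm38, with RefSeq synonyms for *Pycr3*. Promoters came from RefSeq (GRCm38.p6). In R 4.3.3, genes were filtered with edgeR 4.0.16 (filterByExpr by group), libraries scaled with TMM, and groups compared in 1 quasi-likelihood model of all 15 libraries (limma 3.58.1 underneath), without a term for replicate number. The members, lists and motifs were chosen with earlier results of these data known. Named genes are all members, list genes called in any of 6 comparisons, and the 3 genes most correlated with *Arg1*, *Nos2* and *Slc7a2*, of which 1, and 1 motif, are not reported here. Alternatives were DESeq2 1.42.0, its size factors within edgeR, no filter, a minimum of 10 counts in each library, a replicate block, counts thinned to the smallest library, each library left out, the 9 M0 and microrod libraries alone and, chosen after seeing the data, 3 libraries that stood apart left out. Levels are CPM with the SD of 3 libraries. The tests were tested on simulated data.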

Additional observations from a re-analysis of the deposited data

How the results depend on the processing

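Of the fold changes of single members recomputed with other settings, 385 kept their direction and side of the threshold, 9 gained a call and 2 turned. With 1 library left out, 790 kept both, 6 gained a call, 2 lost one and 12 turned. The member count in M1 against M2 was 3. It was 5 with no filter on low counts, by *Arg2* and *Sat1*, and 5 without the 3 libraries that stood apart, by *Odc1* and *Sat1*. In CaP against M0 and in CaP against SiO2 it was 0, and 1, *Arg1*, with DESeq2, with no filter and with thinned counts. With 1 library left out, member counts ranged over 2 to 3 in M1 against M0, 2 to 3 in M2 against M0, 3 to 5 in M1 against M2, 0 to 1 in CaP against M0, and 0 to 0 in SiO2 against M0 and CaP against SiO2. For the wider list they ranged over 1 to 3, 1 to 5, 2 to 7 and 0 to 1 in the first 4 of these. Leaving out M2 replicate 2 gave the 5 members in M1 against M2 and, like M0 replicate 2 and SiO2 replicate 3, the 1 in CaP against M0. The wider list had 1 call in M1 against M0 without M0 replicate 1 or 3 or M1 replicate 2 or 3, 2 in M1 against M2 without M1 replicate 2 or M2 replicate 3, and in M2 against M0 1 without M0 replicate 1 or M2 replicate 1 and 2 without M0 replicate 3, M1 replicate 2, M2 replicate 3 or any SiO2 replicate. The wider list had 4 calls in M1 against M0 with DESeq2, 2 in M2 against M0 without the 3 libraries, 3 in M1 against M2 with a minimum of 10 counts in each library, 1 in CaP against M0 with DESeq2 and 2 with no filter, and 1 in SiO2 against M0 with DESeq2. *Nos2* had no value with that minimum, and the cause of these moves was not tested. The counts from other settings in this section have no share over all genes of the same fit beside them. They are no result about the members or the list.

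The replicate numbers did not pair the samples, since 13 of 30 pairs of deviations with the same number correlated above 0.1, against 23 of 60 with other numbers. With a replicate block the wider list had 2 calls in M2 against M0 in place of 4, and no count of members changed. Directions turned in differences that were not called. With thinned counts *Nos2* in CaP against SiO2 had a log2 fold change of -0.38, and with no filter *Odc1* in CaP against M0 had 0.0053. With 1 library left out, the log2 fold change ranged over -0.26 to 1.17 for *Nos2*, -0.049 to 0.42 for *Slc7a2* and -0.013 to 0.049 for *Sms* in CaP against SiO2. It ranged over -0.12 to 0.088 for *Odc1* and -0.014 to 0.18 for *Sms* in CaP against M0, over -0.026 to 0.52 for *Arg1* and -0.047 to 0.16 for *Sms* in SiO2 against M0, over -0.69 to 0.11 for *Odc1* in M2 against M0, and over -0.079 to 0.14 for *Asl* in M1 against M2.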

Other observations

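Over the 15 libraries, 10723 genes with a symbol and a mean of at least 5 CPM in 1 group were ranked by the correlation of their log2 CPM with that of 3 members. This is a description of likeness, since the libraries share their depth and each pattern rests mainly on the groups that stand apart. *Brwd1* (r = 0.970) and *Pgf*, a growth factor of the VEGF family, (r = 0.967) were among the 3 genes most like *Arg1*. *Brwd1* was at 254 CPM in M2 and at 17.5 to 20.9 CPM in the other group means. *Slc15a3*, a lysosomal peptide transporter, (r = 0.966), *Cth*, which makes cysteine from cystathionine, (r = 0.966) and *Mmp9*, a secreted protease, (r = 0.966) were most like *Nos2*. Their M1 means were 91.3, 25.2 and 50.8 CPM, against M0 means of 11.7, 3.53 and 6.89 CPM. *Ltb4r1*, a leukotriene receptor, (r = 0.968), *Edn1*, which encodes endothelin, (r = 0.958) and *Tarm1*, a myeloid receptor, (r = 0.942) were most like *Slc7a2*. Unlike *Slc7a2*, *Tarm1* had a higher mean in M1, at 156 CPM, than in M2, at 134 CPM.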
